A study of Homo sapiens with 6 samples.

Results

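The endoplasmic reticulum (ER) folds, modifies and checks the proteins that a cell secretes or places in its membranes. The genes described here are 45 genes of that work, taken by symbol from the 40173 genes of the count table: the sensors ATF6 and ERN1 with their effector XBP1, 12 chaperones and cofactors of the ER lumen, 3 genes of the lectin cycle, 7 disulfide isomerases, 8 genes of the translocon, 11 genes of ER-associated degradation (ERAD) and WFS1. All 45 genes passed the filter on low counts. The cells, labelled A549, a human lung adenocarcinoma line, had been transfected with an siRNA against the long noncoding RNA FAM83H-AS1 (silenced) or with a negative control siRNA (control), and RNA was taken a day later. There were 3 libraries of total RNA per group, and the comparison was made by the study to find genes downstream of FAM83H-AS1. The labels do not say whether the libraries came from separate cultures, so that p-values measure only the spread between these libraries.

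When unfolded proteins gather in the ER, the chaperone HSPA5 (BiP) leaves the sensors and the unfolded protein response begins. IRE1, the product of ERN1, splices the XBP1 mRNA, while ATF6 moves to the Golgi and is cut there to release a transcription factor. Both arms raise the transcription of chaperones, isomerases and ERAD genes through short promoter elements. The remaining arm, PERK, lowers translation and works through ATF4 and DDIT3. Counts per gene show the amount of an mRNA, and neither the splicing of XBP1 nor the cutting of ATF6 can be read from them.

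The libraries held between 9738291 and 17742643 counts, and between 21021 and 22202 genes had a count. Levels are in CPM, the counts scaled to 1000000 of the TMM-normalised library size. The siRNA target FAM83H-AS1 went from 14.5, 15.98 and 17.3 CPM in the controls to 4.59, 4.44 and 5.57 CPM after silencing (log2 fold change −1.70, SE 0.148, adjusted p = 7.99e-05, edgeR). Control replicate 3, the deepest library, stood apart, because RNA5-8SP6, a pseudogene of ribosomal RNA, took 3.22% of its counts and between 0.241% and 0.448% elsewhere, and each gene that passed is given below with its result when this library was left out. Of the markers checked, some went against the label of the cells and others went with it. CDKN2A, which is deleted in A549, had 521 to 955 counts per library, and ALDH1A1, which is high in A549, had 0 counts in 5 libraries and 2 in silenced replicate 3. AKR1B10 had 9 to 28 counts and CDH1 8 to 19. AKR1C3, which is high in A549 as well, had 1758 to 2751 counts, and AKR1C2 178 to 274. The keratins KRT8, KRT18 and KRT7 had 9305 or more counts in every library. Of the further epithelial markers, KRT19 had 5 to 17 counts and EPCAM 32 to 59. CD3E and HBB were at 0 in all 6 libraries, PTPRC had at most 1 count and PECAM1 at most 2. The cause was not tested, and the cells are called by their label.

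In the promoters of some of these genes lie the sequences through which the unfolded protein response is known to act. Genes with such a sequence and genes without one both moved in both directions, mostly upward. RefSeq windows from 250 bases before to 50 bases after the gene start (GRCh38.p14) matched 42 of the 45 genes by symbol (not PDIA3, DERL1 and DERL3) and were searched on both strands. The ER stress response element (ERSE, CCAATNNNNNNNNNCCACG), bound by NF-Y and ATF6, was found in 6 of the 42 windows (14.3%), compared with 27 of 35116 windows of all genes (0.0769%). Of the 13829 windows of tested genes, 17 held it (0.123%). The list was made of chaperones, isomerases, ERAD genes and others on which this response is known to act. The shares of this and the following motifs are therefore a description and no test. Capitals mark the bases fixed by the motif, and each sequence is printed 5′ to 3′ on the strand of its gene. An ERSE printed as CGTGG and ATTGG therefore reads on the other strand. The first capital lies 52 bases before the RefSeq start in XBP1, 66 bases before it in HSPA5 and 194 and 89 bases before it in HSP90B1.
XBP1, chr22:28800598-28800626, minus strand: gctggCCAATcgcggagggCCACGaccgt
HSPA5, chr9:125241386-125241414, minus strand: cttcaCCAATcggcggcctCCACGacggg
HSP90B1, chr12:103930211-103930239, plus strand: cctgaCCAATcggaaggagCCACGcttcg
HSP90B1, chr12:103930316-103930344, plus strand: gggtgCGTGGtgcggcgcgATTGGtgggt
CRELD2, chr22:49918549-49918577, plus strand: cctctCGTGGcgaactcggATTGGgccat
CALR, chr19:12938379-12938407, plus strand: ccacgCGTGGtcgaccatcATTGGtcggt
CANX, chr5:179698773-179698801, plus strand: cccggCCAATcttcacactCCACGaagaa

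ERSE-II (ATTGG and CCACG with 1 base between them) was found in 3 of the 42 windows (7.14%), those of HYOU1, SDF2L1 and HERPUD1. It was in 19 of all windows (0.0541%) and in 14 of the windows of tested genes (0.101%). The UPR element (UPRE, TGACGTGG), which XBP1 binds, was found in 5 of the 42 (11.9%), those of HYOU1, DNAJC10, TXNDC11, SEC62 and VCP. It was in 256 of all windows (0.729%) and in 120 of the windows of tested genes (0.868%). In HYOU1 the UPRE and 1 of its 2 ERSE-II elements share bases. An ERSE-II printed as CGTGG and CCAAT reads on the other strand. In TXNDC11 the UPRE begins 5 bases after the RefSeq start, while the other elements printed below lie before it. The elements of the 2 smaller motifs in genes that changed read as follows, with the fixed bases in capitals.
HYOU1, ERSE-II, chr11:119057375-119057395, minus strand: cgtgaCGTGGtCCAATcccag
HYOU1, ERSE-II, chr11:119057269-119057289, minus strand: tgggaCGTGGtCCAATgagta
SDF2L1, ERSE-II, chr22:21642109-21642129, plus strand: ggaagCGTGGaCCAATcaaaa
HERPUD1, ERSE-II, chr16:56932020-56932040, plus strand: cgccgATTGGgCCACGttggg
TXNDC11, UPRE, chr16:11742840-11742857, minus strand: gcggcTGACGTGGagcgt
VCP, UPRE, chr9:35072802-35072819, minus strand: ccaatTGACGTGGcgtta

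After silencing, 13 of these ER genes rose by small amounts, and HSPA5, the Hsp70 of the ER lumen, and VCP fell, while 30 did not pass the test. Of the 45 genes, 13 passed the test as higher (28.9%), compared with 8.75% of the 15250 genes tested, and 2 passed as lower (4.44%), compared with 8.27%. The mean SE of the log2 fold change was 0.0942 for the 45 genes and 0.164 for all genes tested. Small changes could therefore pass, or leave the groups without overlap, more readily among the 45. A gene passed when its adjusted p was under 0.05 in edgeR's quasi-likelihood test, with Benjamini-Hochberg adjustment over all genes tested. None of the 45 was past a fold change of 2, which the study required and which 2.14% of all genes tested passed in either direction. The median log2 fold change (silenced minus control) was 0.24, with quartiles of 0.10 and 0.30, while the median of all genes was −0.000672. Between the groups, the libraries did not overlap for 25 genes that were higher in the silenced libraries (55.6%, compared with 19.1% of all genes) and for 4 that were lower (17.5% of all genes, and 36.6% in either direction). In bulk RNA, fewer cells of a type and less RNA per cell cannot be told apart. The number that passed as higher was 6 without control replicate 1, 10 without silenced replicate 2 and 7 without any 1 of the other libraries, control replicate 3 included. The number lower was 0 without silenced replicate 1, 2 without silenced replicate 3 and otherwise 1.

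**Figure D1:**
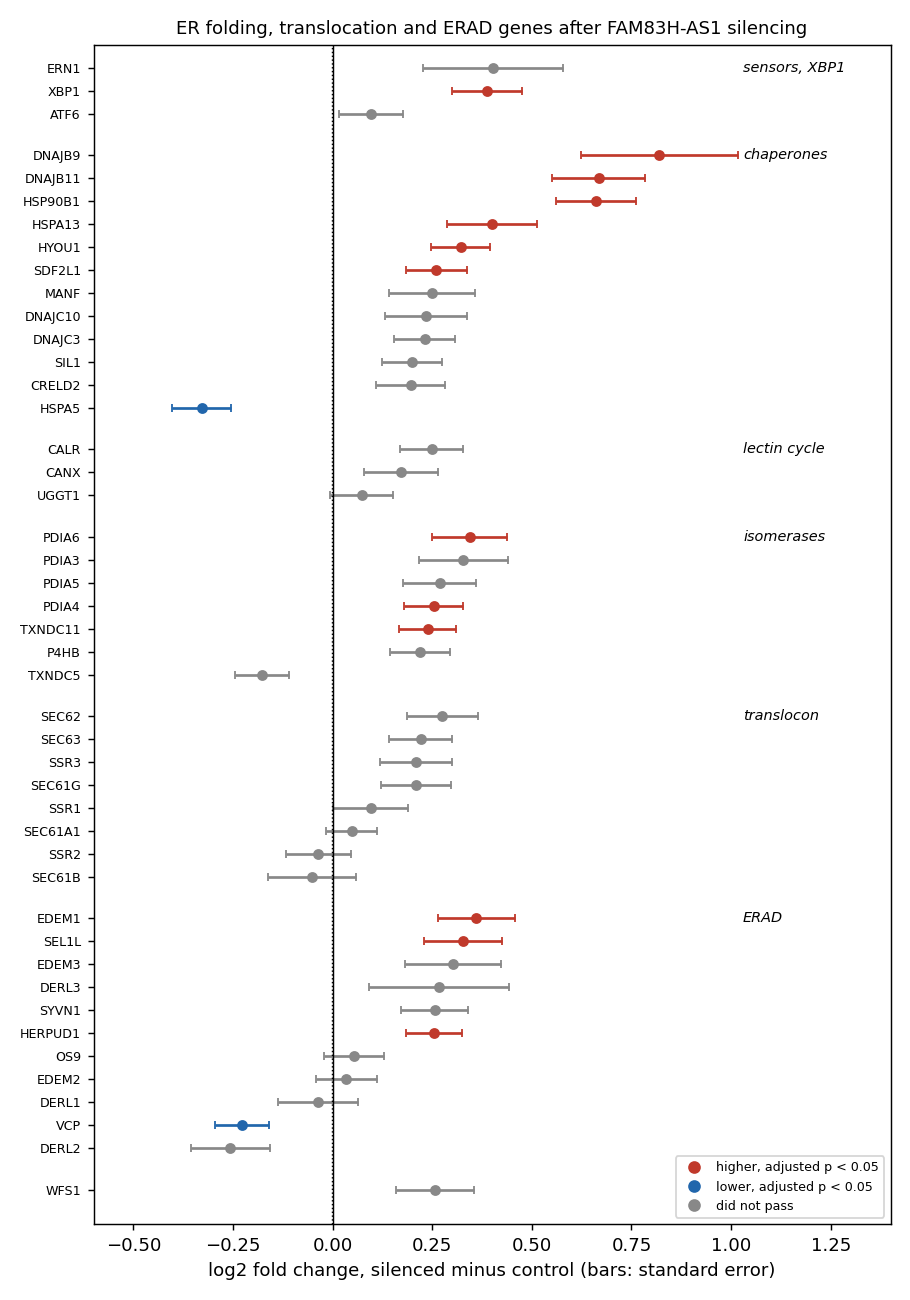
Log2 fold change (x axis, silenced minus control) of each of the 45 ER genes, grouped by role, where points are the edgeR estimates, bars the standard error, red and blue the genes that passed as higher and as lower, and grey the rest. 38 of the 45 points lie above 0, and HSPA5 is the single chaperone below it.

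**Figure D2:**
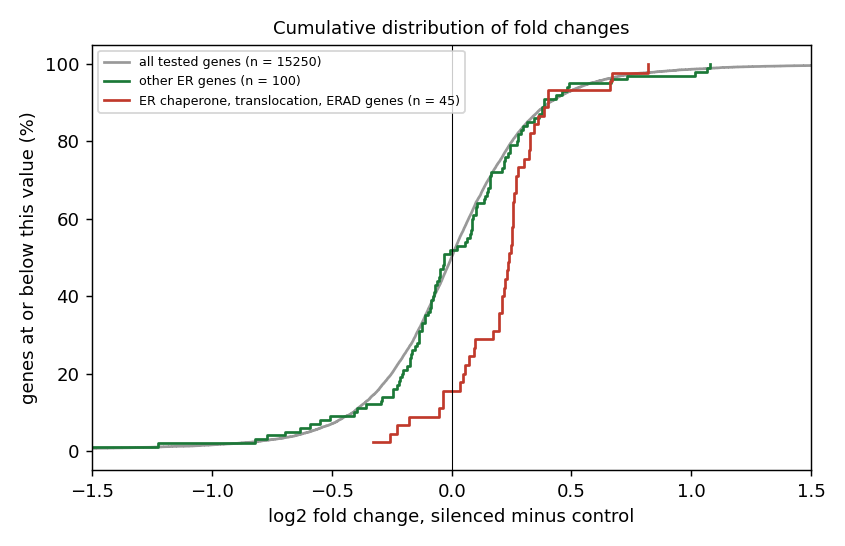
Share of genes (y axis, percent) at or below each log2 fold change (x axis, cropped at both ends) for the 45 ER genes, the 100 other tested genes of the ER pathway and all 15250 tested genes. The curve of the 45 genes lies to the right of the other curves over its middle part, with medians of 0.24, −0.03 and −0.00.

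Of the 3 genes at the top of the response, XBP1 alone passed the test. XBP1, the transcription factor downstream of IRE1, had 79.3, 84.0 and 83.0 CPM in the control and 103, 121 and 98.8 CPM in the silenced libraries. All silenced libraries were above all control libraries, with a fold change of 1.31 (log2 fold change 0.39, SE 0.0880, adjusted p = 0.0135). XBP1 passed with any 1 library left out. The sensor ERN1 had 10.5, 10.1 and 16.5 CPM in the control and 16.9, 17.4 and 15.6 CPM in the silenced libraries, so that control replicate 3 alone made the groups overlap (log2 fold change 0.40, SE 0.176, adjusted p = 0.14). Without that library its log2 fold change was 0.69 (adjusted p = 0.0107). ATF6, the sensor of the other arm, had 58.1, 66.8 and 61.8 CPM in the control and 64.0, 70.3 and 65.4 CPM in the silenced libraries. These overlapped, and ATF6 did not pass (log2 fold change 0.10, SE 0.0806, adjusted p = 0.445).

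Among the 12 chaperones and cofactors, 6 passed as higher (50%) and 1 as lower (8.33%), compared with 8.75% and 8.27% of all genes tested. Their median log2 fold change was 0.26. HSPA5, the Hsp70 of the ER lumen, was the chaperone that fell. It had 1030, 1124 and 1150 CPM in the control and 822, 889 and 919 CPM in the silenced libraries. The groups did not overlap, and the level was 1.26-fold lower (log2 fold change −0.33, SE 0.0739, adjusted p = 0.013). The call was lost without silenced replicate 1 (adjusted p = 0.0715) and held without control replicate 3. HSP90B1 (GRP94), the Hsp90 of the ER lumen, had 437, 564 and 549.4 CPM in the control and 761, 883 and 809 CPM in the silenced libraries. It rose 1.58-fold with no overlap (log2 fold change 0.66, SE 0.0999, adjusted p = 0.00185) and passed with any 1 library left out. Counts of its pseudogenes HSP90B2P and HSP90B3P, equal to 4.51% and 1.74% of its own, rose as well, by 0.54 and 0.55 on the log2 scale (adjusted p = 0.00366 and 0.0271), and reads may be shared between them.

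HSPA5 and HSP90B1 thus moved apart within the same libraries, and the promoter windows of both hold the ERSE printed above. The ratio of HSPA5 to HSP90B1 counts, which is not a ratio per length and serves only to compare libraries, was 2.36, 1.99 and 2.09 in the controls and 1.08, 1.01 and 1.14 after silencing. The pair was chosen for having moved apart, so that the ratio is a description and no test is given (2.15 ± 0.190 against 1.07 ± 0.0646, SD, n = 3). A ratio within a library does not depend on how the libraries were scaled. The ratio of HSPA5 to its cofactor DNAJB11 went from 31.0 ± 2.97 to 15.5 ± 2.01, that to HYOU1 from 3.90 ± 0.165 to 2.48 ± 0.0679 and that to CALR from 0.649 ± 0.00533 to 0.436 ± 0.0445, likewise chosen and without a test.

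**Figure D3:**
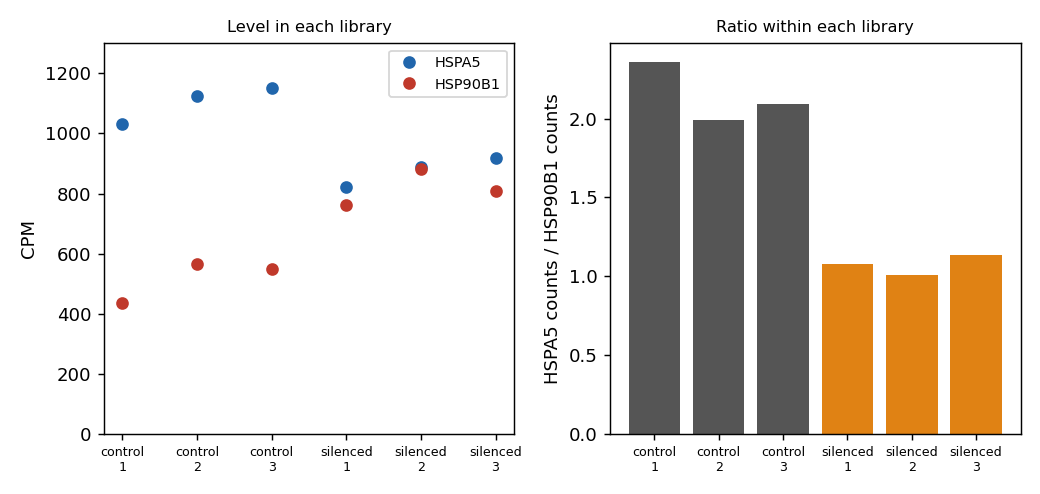
Left, the levels (y axis, CPM) of HSPA5 in blue and HSP90B1 in red in each of the 6 libraries, and right, the ratio of their counts in each library as bars that start at 0. The control libraries sit at ratios of 1.99 to 2.36 and the silenced libraries at 1.01 to 1.14.

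The cofactors that rose most were J proteins, which hand clients to HSPA5 and start its ATP cycle. DNAJB9 (ERdj4), which also holds IRE1 in check, had 3.91, 6.13 and 4.91 CPM in the control and 7.52, 8.78 and 10.1 CPM in the silenced libraries. This was the largest log2 fold change of the 45 genes (0.82, SE 0.197, 1.76-fold, adjusted p = 0.0174), at a low level, and the groups did not overlap. The call was lost without silenced replicate 3 (adjusted p = 0.0659). Exons of PNPLA8 overlap DNAJB9 on the other strand, at 407% of its level in the control cells, with a log2 fold change of 0.36 (adjusted p = 0.106), and the use of strand in counting is not stated. DNAJB11 (ERdj3) had 31.6, 40.9 and 35.2 CPM in the control and 52.6, 66.0 and 52.6 CPM in the silenced libraries. All silenced libraries were higher, 1.59-fold (log2 fold change 0.67, SE 0.117, adjusted p = 0.00407), also with any 1 library left out. TBCCD1, which overlaps DNAJB11 on the other strand at 24.2% of its level, stood at −0.12 (adjusted p = 0.655). The other 2 J proteins, DNAJC3 and DNAJC10, did not pass (0.23 each on the log2 scale, adjusted p = 0.0598 and 0.141).

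HYOU1 (GRP170), an Hsp110 protein that exchanges the nucleotide of HSPA5, had 266, 276 and 307 CPM in the control and 341, 358 and 361 CPM in the silenced libraries. The groups did not overlap and the rise was 1.25-fold (log2 fold change 0.32, SE 0.0737, adjusted p = 0.0141), lost without control replicate 2 (adjusted p = 0.054). SIL1, the other exchange factor of HSPA5, did not pass (0.20, adjusted p = 0.0939), and MATR3 overlaps it on the other strand at 466% of its level. HSPA13, an Hsp70-like protein of microsomes, had 21.9, 24.0 and 19.0 CPM in the control and 28.02, 31.2 and 26.3 CPM in the silenced libraries. Its groups did not overlap (log2 fold change 0.40, SE 0.113, adjusted p = 0.0332), and the call was lost without control replicate 1 or 3 or silenced replicate 1 or 2 (adjusted p between 0.0661 and 0.126). SDF2L1, a partner of DNAJB11, had 43.2, 39.0 and 40.4 CPM in the control and 48.3, 49.7 and 48.6 CPM in the silenced libraries. It was higher in every silenced library (log2 fold change 0.26, SE 0.0769, adjusted p = 0.04), and the call was lost with any library left out but control replicate 1 (adjusted p between 0.0818 and 0.119). The secreted stress factors MANF and CRELD2 did not pass (0.25 and 0.20, adjusted p = 0.138 and 0.144). The summed level of the chaperones and cofactors overlapped between the groups, at 2267 ± 151 and 2498 ± 125 CPM (SD, n = 3). HSPA5, which fell, held 1101.5 CPM of this sum in the control libraries. Without HSPA5 the sum was 1165 ± 88.7 CPM in the control and 1622 ± 85.4 CPM in the silenced libraries, with no overlap. HSPA5 was left out because it fell, so that this is a description.

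**Figure D4:**
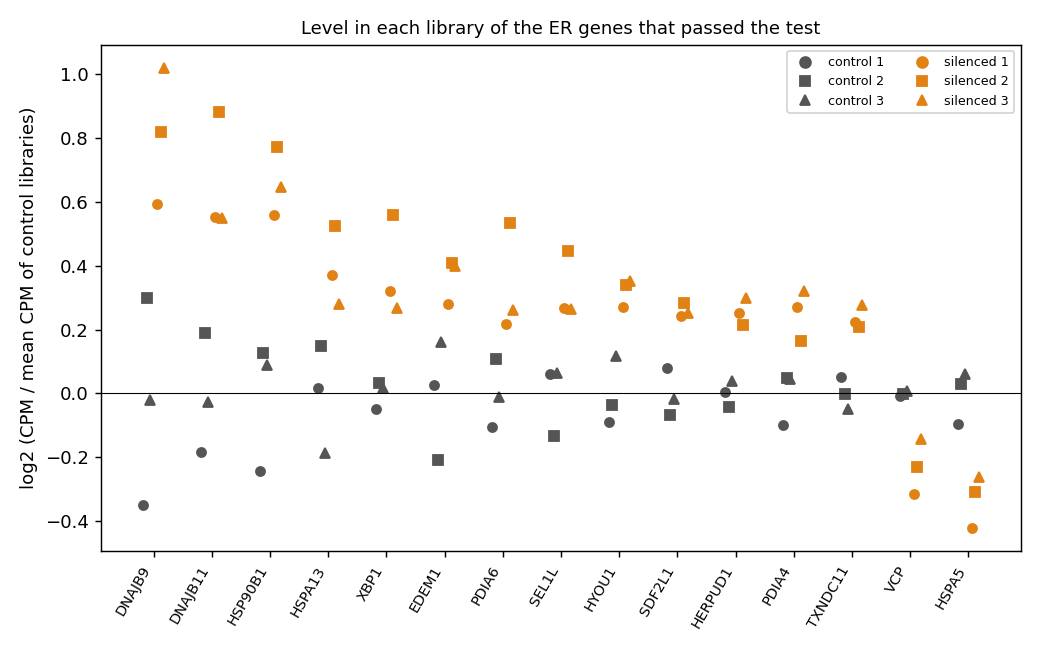
Level of each of the 15 ER genes that passed in each library, as log2 of CPM over the mean CPM of the control libraries (y axis), with control libraries in grey, silenced libraries in orange and the replicate number as the shape. The orange points lie above all grey points for 13 genes and below them for HSPA5 and VCP.

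The 3 genes of the lectin cycle, which holds glycoproteins back until they are folded, all had estimates above 0 but none passed. Calreticulin (CALR), the lectin of the lumen, had the highest level per length of all 45 genes (892 CPM per kb of the transcript with the longest coding sequence, in the control cells). Its libraries did not overlap, at 1587 to 1760 CPM in the control and 1841 to 2129 CPM in the silenced cells (log2 fold change 0.25, SE 0.0793, adjusted p = 0.0529). Calnexin (CANX), its membrane-bound counterpart, stood at 0.17 (adjusted p = 0.232), and UGGT1, which marks misfolded glycoproteins for another round, at 0.07 (adjusted p = 0.568).

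Of the 7 disulfide isomerases and related thioredoxin-like proteins, 3 passed as higher (42.9%, compared with 8.75% of all genes tested). The libraries of the groups did not overlap for 6 that were higher in the silenced libraries and 1 that was lower. Of all genes tested, 36.6% did not overlap in either direction. PDIA6, an isomerase that acts with HSPA5, had 215, 250 and 230 CPM in the control and 269, 335 and 278 CPM in the silenced libraries. The rise was 1.27-fold (log2 fold change 0.34, SE 0.0939, adjusted p = 0.0297) and was lost without control replicate 1 or 3 or silenced replicate 2 (adjusted p between 0.0619 and 0.0919). PDIA4 (ERp72) had 272, 301 and 300 CPM in the control and 351, 326 and 364 CPM in the silenced libraries. It rose 1.19-fold (log2 fold change 0.25, SE 0.0732, adjusted p = 0.0367), and its call was lost with any library left out but silenced replicate 2 (adjusted p between 0.0563 and 0.125). TXNDC11, a membrane protein with thioredoxin domains, had 66.3, 63.9 and 61.8 CPM in the control and 74.8, 74.0 and 77.6 CPM in the silenced libraries. All silenced libraries were higher (log2 fold change 0.24, SE 0.0719, adjusted p = 0.0429), while leaving out any 1 library ended the call (adjusted p between 0.0601 and 0.129). SNN, which overlaps TXNDC11 on the other strand, was lower (log2 fold change −0.37, adjusted p = 0.0323).

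Of the other isomerases, the abundant P4HB, PDIA5 and the glycoprotein isomerase PDIA3 had log2 fold changes of 0.22, 0.27 and 0.33 without passing (adjusted p = 0.0703, 0.0657 and 0.0656). The pseudogene PDIA3P held counts equal to 42.6% of those of PDIA3, with a log2 fold change of 0.16 (adjusted p = 0.244), so that the value of PDIA3 is uncertain. TXNDC5 (ERp46) was the isomerase with an estimate below 0, at 162, 169 and 170 CPM in the control and 150, 150 and 143 CPM in the silenced libraries. The groups did not overlap, and it did not pass (log2 fold change −0.18, SE 0.0670, adjusted p = 0.094). The readthrough gene BLOC1S5-TXNDC5 shares exons with it on the same strand, at 89.5% of its level. The summed level of the 7 genes was 2132 ± 107 CPM in the control and 2493 ± 53.6 CPM in the silenced libraries.

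None of the 8 genes of the translocon, the channel through which proteins enter the ER, passed the test, and their median log2 fold change was 0.15. SEC61A1, the channel itself, had 606, 601 and 629 CPM in the control and 617, 643 and 640 CPM in the silenced libraries. These overlapped (log2 fold change 0.05, SE 0.0637, adjusted p = 0.644), and SEC61A1 had the smallest standard error of the 45 genes. RUVBL1, which overlaps SEC61A1 on the other strand at 27.8% of its level, was lower (log2 fold change −0.36, adjusted p = 0.0122). The small channel subunits stood at −0.05 (SEC61B, adjusted p = 0.782) and 0.21 (SEC61G, adjusted p = 0.129). SEC62 and SEC63, which with HSPA5 bring proteins in after their synthesis, stood at 0.28 and 0.22 with no overlap of the groups (adjusted p = 0.0565 and 0.0784). The translocon-associated genes SSR1, SSR2 and SSR3 stood at 0.10, −0.04 and 0.21 (adjusted p = 0.518, 0.8 and 0.132).

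Of the 11 ERAD genes, 3 passed as higher (27.3%) and 1 as lower (9.09%), compared with 8.75% and 8.27% of all genes tested. EDEM1, a mannosidase-like protein that marks glycoproteins for disposal, had 48.9, 41.5 and 53.7 CPM in the control and 58.3, 63.8 and 63.4 CPM in the silenced libraries. It rose 1.28-fold with no overlap (log2 fold change 0.36, SE 0.0976, adjusted p = 0.0287) and also passed without control replicate 3, while leaving out any other library ended the call (adjusted p between 0.0569 and 0.0878). SEL1L, the scaffold of the ubiquitin ligase SYVN1 (HRD1), had 26.0, 22.7 and 26.0 CPM in the control and 30.0, 33.9 and 30.0 CPM in the silenced libraries. Its groups did not overlap (log2 fold change 0.33, SE 0.0978, adjusted p = 0.0419), and leaving out any 1 library ended the call (adjusted p between 0.0624 and 0.138). HERPUD1, which organises the same ligase, had 93.7, 90.6 and 95.9 CPM in the control and 111, 108 and 115 CPM in the silenced libraries. All silenced libraries were higher (log2 fold change 0.25, SE 0.0703, adjusted p = 0.0311), and the call was lost with any library left out but silenced replicate 2 (adjusted p between 0.0524 and 0.104).

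VCP (p97), the ATPase that pulls ERAD clients into the cytosol, fell. It had 396, 398 and 400 CPM in the control and 320, 339 and 361 CPM in the silenced libraries. All silenced libraries were lower, 1.17-fold on average (log2 fold change −0.23, SE 0.0682, adjusted p = 0.0421), and the call was lost with any library left out but silenced replicate 3 (adjusted p between 0.0764 and 0.184). The ligase SYVN1 did not pass (0.26, adjusted p = 0.0581), and FAU and MRPL49, with exons that overlap its own, were at 319% and 126% of its level. Of the other mannosidase-like genes, EDEM3 stood at 0.30 and EDEM2 at 0.03 (adjusted p = 0.111 and 0.798). The derlins, which help clients across the membrane, stood at −0.04 (DERL1), −0.26 (DERL2) and 0.27 (DERL3, the lowest derlin in CPM, with SMARCB1 on the other strand at 765% of it), and none passed (adjusted p = 0.836, 0.0999 and 0.328). The lectin OS9 stood at 0.05 (adjusted p = 0.666). With VCP holding 398 of 940 CPM in the control cells, the summed level of the ERAD genes overlapped, at 940 ± 22.9 and 942 ± 39.1 CPM. WFS1, a membrane protein of the ER linked to calcium and to insulin secretion, did not pass (0.26, adjusted p = 0.0971).

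Summed over the 45 genes, the level was 9760 ± 407 CPM in the control and 10939 ± 236 CPM in the silenced libraries (SD, n = 3), 12.1% higher with no overlap. These genes took between 0.928% and 1.01% of the counts in control libraries and between 1.08% and 1.13% in silenced ones. The levels in single libraries were not spread evenly. Control replicate 1 was the lowest control library for 24 of the 45 genes (53.3%), compared with 37.5% of all genes tested, and silenced replicate 2 the highest silenced library for 26 (57.8%), compared with 38.1%. Silenced replicate 1 was the lowest silenced library for 23 (51.1%), compared with 28.9%. Their part in the result was not tested beyond leaving each of them out, which gave 6 genes that passed as higher without control replicate 1, 10 without silenced replicate 2 and 7 without silenced replicate 1.

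Genes with a promoter element lay on both sides of 0, and so did genes without one. Of the 13 genes with an ERSE, ERSE-II or UPRE in the window, 6 passed as higher (46.2%) and 2 as lower (15.4%, HSPA5 and VCP). The shares of all genes tested were 8.75% and 8.27%. Of the 13 estimates, 11 lay above 0, and the median log2 fold change was 0.25. Of the 29 genes with a window and none of the 3 elements, 7 passed as higher (24.1%) and none as lower. Of these 29 estimates, 25 lay above 0, and the median was 0.22. DNAJB9, DNAJB11 and EDEM1 were among those with none in these 300-base windows, which says nothing of elements farther away. These are descriptions without a test.

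A word of 7 bases, CCAATAA, was picked earlier from these same fold changes as one that lower mRNAs carry, so that the values here support nothing about it. It was present in an annotated 3′-UTR of 1417 of the 11549 genes tested that have one (12.3%) and of 4 of the 45 ER genes (8.89%): HSPA5 and DERL2, with log2 fold changes of −0.33 and −0.26, and DNAJC3 and DNAJC10, both at 0.23. VCP, which also fell, did not carry it. The sites read as follows, with the word in capitals, and lie at base 325 of the 3′-UTR in HSPA5, 11 in DERL2, 1636 and 3197 in DNAJC3 and 4281 in DNAJC10.
HSPA5: aagtgacaCCAATAAatgtttgt
DERL2: cagcagtgCCAATAAtgagaccc
DNAJC3: atttcttaCCAATAAacttgaca
DNAJC3: aaaggtagCCAATAAaaccacaa
DNAJC10: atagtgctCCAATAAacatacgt

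A further 102 genes of the same pathway were listed by role, of which 101 were found in the table and 100 were tested (CLGN was below the filter). Of these, 18 passed as higher (18%, compared with 8.75% of all genes tested), 13 as lower (13%, compared with 8.27%) and 5 past a fold change of 2 (compared with 2.14%), and their median log2 fold change was −0.03. Of their estimates, 48 lay above 0 and 52 below it, and the difference between the lists was not tested. Among the 12 genes of the oligosaccharyltransferase, which attaches N-glycans, 1 passed in each direction (8.33%). RPN2 was higher (0.24, adjusted p = 0.0325) and TMEM258 lower (−0.36, adjusted p = 0.038), and each of these calls was lost with 5 of the 6 libraries left out in turn. Of 17 genes of the signal recognition particle, its receptor, the signal peptidase and further translocon partners, 3 were higher (17.6%) and 1 lower (5.88%). The higher genes included the translocon partner TRAM2 (0.48, adjusted p = 0.00237) and the receptor subunit SRPR (0.39, adjusted p = 0.00575). SRP9 was lower (−0.59, adjusted p = 0.018, lost without control replicate 2 or silenced replicate 1 or 3, with adjusted p between 0.0584 and 0.0762). The calls of the other genes named from these lists held with any 1 library left out.

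Of 19 other ERAD genes, 2 were higher (10.5%) and 3 lower (15.8%), compared with 8.75% and 8.27% of all genes tested. The lower genes were led by the membrane protein ERLIN2 (−0.63, adjusted p = 0.00711) and the ubiquitin-conjugating enzyme UBE2J1 (−0.55, adjusted p = 0.0029). VIMP, a selenoprotein that binds VCP, was higher (0.43, adjusted p = 0.00535). Of 18 genes of disulfide and prolyl exchange, 3 were higher (16.7%) and 3 lower (16.7%). PPIB (cyclophilin B), a prolyl isomerase of the ER lumen, had 497, 502 and 457 CPM in the control and 205, 201 and 216 CPM in the silenced libraries. It fell 2.34-fold (log2 fold change −1.23, SE 0.0701, adjusted p = 6.59e-06), more than any of the 45 genes. FKBP9 and TXNDC12 were lower as well (−0.41 and −0.40, adjusted p = 0.00707 and 0.00613). Of 11 genes of glycan trimming and lectin transport, 2 were higher (18.2%) and 1 lower (9.09%). UGGT2 and the cargo receptor LMAN1 were higher (0.49 and 0.38, adjusted p = 0.0113 and 0.0072), and KDELR3, which returns escaped chaperones to the ER, was lower (−0.51, adjusted p = 0.00831).

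Of the 10 genes of the PERK arm, 3 were higher (30%) and 4 lower (40%), compared with 8.75% and 8.27% of all genes tested. The stress transcription factors ATF3 and DDIT3 (CHOP) rose 2.09-fold and 2.02-fold (log2 fold change 1.06 and 1.01, adjusted p = 0.00307 and 0.000732), and NUPR1 was 4.23-fold lower at a low level (2.74 ± 0.402 against 0.630 ± 0.148 CPM, log2 fold change −2.08, adjusted p = 0.00179). ATF4, the transcription factor that PERK signalling brings to translation, was 1.62-fold lower (330 ± 36.1 against 204 ± 1.52 CPM, log2 fold change −0.69, adjusted p = 0.000493), and its target ASNS was 1.77-fold lower (54.6 ± 8.82 against 31.0 ± 3.64 CPM, log2 fold change −0.82, adjusted p = 0.00192). DDIT3 had 20.7, 30.4 and 26.9 CPM in the control and 54.8, 56.5 and 47.3 CPM in the silenced libraries, with no overlap. Of 7 other genes of ER stress transducers, their proteases and the ligase RTCB, 2 were higher (28.6%) and none lower. These were CREB3L1 and CREB3L2 (1.08 and 0.38, adjusted p = 0.00989 and 0.0102). Of 6 genes of ER-phagy, 2 were higher (33.3%) and none lower, the receptors FAM134B and ATL3 (0.73 and 0.46, adjusted p = 0.00613 and 0.00475).

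**Figure D5:**
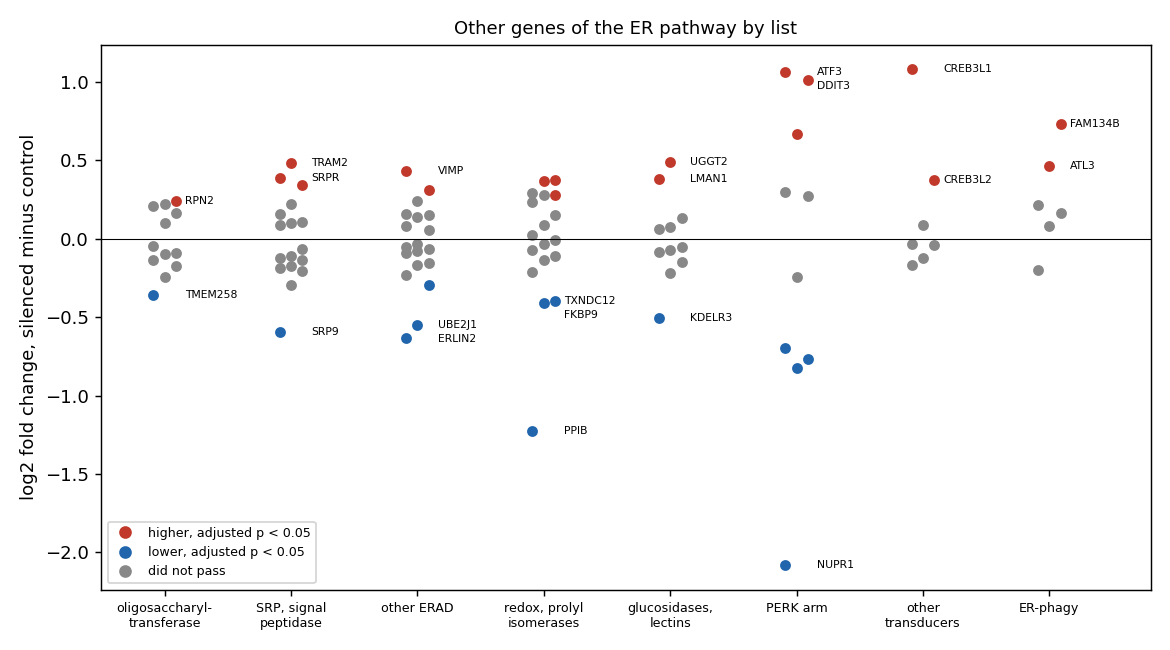
Log2 fold change (y axis, silenced minus control) of the 100 other tested ER genes by list (x axis), with red and blue for the genes that passed as higher and as lower and names for at most 3 per list. NUPR1 at −2.08 and PPIB at −1.23 lie lowest, and CREB3L1, ATF3 and DDIT3 at 1.01 to 1.08 highest.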

How the data were processed

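Ion Proton libraries of total RNA were sequenced for 3 control and 3 silenced samples. Reads were mapped and assigned to genes by the authors with MapSplice, and the deposited counts are whole and not normalized. The submitters' processing notes name GRCh37; locations are from GENCODE 29 on GRCh38 and promoter sequences from RefSeq, both matched by symbol. Strand use and the treatment of reads with several matches are not given in the sources used here, which touches genes with close copies or overlaps. Those not named above include MIS12 at 87.1% of the control level of DERL2 and ALG12 at 82.6% of CRELD2, on the other strand. On the same strand, SEC22A was at 45.7% of PDIA5. Counts of the pseudogene SEC63P1 equalled 13.4% of those of SEC63.

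Counts were tested with edgeR 4.0.16 in R 4.3.3 (filterByExpr, TMM, quasi-likelihood fit without covariates, Benjamini-Hochberg over 15250 genes), which was tested on simulated data. DESeq2 1.42.0 was an alternative. SE is the absolute log2 fold change over the square root of F. Other steps used Python 3.11.15, pandas 2.3.3 and matplotlib 3.10.9. Depth was 9738291 counts or more per library, and edgeR borrows the variance of a gene from genes alike in level. No pair of libraries of a group were alike within counting noise (chi-square per degree of freedom 3.92 to 26.8).

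The 45 genes and the lists of other genes were chosen with earlier results of these data known. All 45 were named, with values in every library for those that passed, for ATF6, ERN1, XBP1 and HSPA5 and for the 2 with the smallest SE among the rest, and at most 3 genes that passed per other list, by size of change. PPIB and DDIT3 for per-library values, and ATF4 and ASNS, were chosen after their values were seen. Protein sequences were not used here.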

Additional observations from a re-analysis of the deposited data

How the results depend on the processing

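The 15 genes that passed kept their direction under 15 alternatives, and 3 of them (XBP1, HSP90B1 and DNAJB11) passed in the 14 that kept the threshold. Genes past a fold change of 2 stayed at 0 in each. Of the 45 genes, the count higher was 13, and 2 at an adjusted p under 0.01, 22 with the replicate number as a block, 14 with DESeq2, 19 with library size only, and 6 to 10 with a library left out. The count lower was 2, and 0 at an adjusted p under 0.01, 1 with library size only, 2 with the replicate block and 0 to 2 with a library left out. Of the other ER genes, the count higher was 18, and 10 at an adjusted p under 0.01, where the count lower was 9. The median of the 45 genes was 0.24, and 0.27 with library size only, 0.21 without silenced replicate 2 and 0.22 to 0.25 under the rest, while the median of all genes stayed between −0.00 and 0.03.

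With a library left out, direction turned for 5 genes near 0. SEC61B ranged from −0.12 to 0.031 (above 0 without control replicate 1, at 0.02, and without silenced replicate 3), SSR2 from −0.086 to 0.030 (above 0 without control replicate 1, at 0.01, and without silenced replicate 2), SSR1 from −0.022 (without silenced replicate 2) to 0.16, DERL1 from −0.11 to 0.027 (without silenced replicate 1) and OS9 from −0.0058 (without silenced replicate 3) to 0.11. The cause was not tested.

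Deviations of same-numbered libraries from their group means correlated at 0.124, 0.149 and 0.067 over genes. Each library correlated best with its own number, a hint from the data, and the numbers were not taken as a pairing. A supplementary table of the study numbers the silenced replicates in another order than the deposited table, whose numbers were used here, so that the block rests on numbers in doubt. The smallest change that passed among the 45 genes was −0.23 (VCP).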
